A study of Homo sapiens with 6 samples.

Results

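Cholesterol and fatty acid synthesis genes were examined in HMLE cells, an immortalised human mammary epithelial cell line in which the Snail transcription factor or the ligand TGF-β induces an epithelial-to-mesenchymal transition. The genes were taken from a list of 42 symbols written from gene function, with earlier results of these data known. A gene was measured where a probe of the array carried its symbol or an older alias. Of the 42 genes, 41 had a named probe and all 41 were above background on at least 1 array, among 20046 genes with a probe and 14811 above background in the whole series. For FDFT1 no probe was named in the probe table used here. The members are 17 enzymes that build sterols, 5 genes that sense sterols or switch the pathway on, 8 genes of sterol transport and esterification, 4 genes of fatty acid synthesis, and 7 desaturases and elongases.

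Expression was measured on 6 arrays, 1 for each condition. In the order used here the conditions were DHA and Vector, Snail+DHA and Snail, and TGFb+DHA and TGFb. The DHA arrays came from HMLE cells given the polyunsaturated fatty acid docosahexaenoic acid at 20 μM, bound to albumin in the study's methods, the Snail arrays from cells with ectopic Snail from a retroviral construct, and the TGFb arrays from cells given TGF-β at 1 ng/ml by the labels (the study's culture methods give another dose). The Vector array came from HMLE cells with no inducer and no DHA, and all 6 conditions share this 1 cell line. In the study Vector names cells with a control vector. The array titles do not say whether the cells given DHA or TGF-β carried that vector. The study used DHA to stabilise the ordered membrane domains called rafts. With 1 array per condition no difference between 2 arrays has a replicate, so such differences are described with no test, and a difference of 1.5-fold (0.585 on the log2 scale) was counted.

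The median of every array was 6.30 on the log2 scale, and a probe was above background from about 6.31 to 6.38. Of all probes, 46.5%, 43.5% and 46.5% were above background on the DHA, Snail+DHA and TGFb+DHA arrays, against 49.5%, 46.8% and 48.6% on the Vector, Snail and TGFb arrays. The basal keratin genes KRT5 and KRT14 were above background on all 6 arrays, with KRT5 at 10.49 and 11.69 on the Snail+DHA and Snail arrays and between 13.40 and 14.32 on the other 4. Of the epithelial adhesion genes, EPCAM was not above background on either array with Snail and CDH1 was above it only on Snail (6.39), against 10.03 to 11.52 for both genes on the other 4 arrays. For KRT17 and TP63 no probe was named. Of the mesenchymal genes, VIM was at 13.32 to 14.23 on the 4 arrays with Snail or TGF-β, against 11.62 on Vector and 12.03 on DHA. CDH2 was at 8.75 to 10.60 on those 4 arrays, against 7.65 on Vector and 7.04 on DHA. FN1 was at 7.34 to 8.21 on the same 4 arrays, at 6.44 on DHA and not above background on Vector. ZEB1 was above background only on Snail (6.49). SNAI1 itself was not above background on any array, so its probe does not check the Snail label. The leukocyte gene PTPRC, the endothelial gene CDH5 and the adipocyte gene PLIN1 were above background on none, PECAM1 and ADIPOQ did not pass 6.45, and CD68 was above background on all 6 arrays, at 10.54 and 10.42 on the Snail+DHA and Snail arrays and 8.39 to 8.78 on the others. The part of these marker differences in the results was not tested. In RNA from whole cultures, fewer cells of a type and less RNA per cell cannot be told apart.

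Cells make cholesterol from acetyl-CoA through the mevalonate pathway, and fatty acids from acetyl-CoA through malonyl-CoA. Both pathways are switched on by SREBP transcription factors, which SCAP carries out of the endoplasmic reticulum when sterols are low and which INSIG proteins hold back when sterols are high. Desaturases and elongases then set the double bonds and length of the acyl chains of membranes. Polyunsaturated fatty acids are known to lower SREBF1 activity in other cells, above all in liver.

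With DHA alone, 0 members were 1.5-fold higher than in Vector cells and 4 of 40 measured were lower, where 2.54% of all genes were higher and 3.72% lower. In Snail cells, 1 of 41 members was higher with DHA and 8 were lower, against 5.9% and 7.43% of all genes. In TGF-β cells, 8 of 40 were higher and 4 lower, against 7.33% and 10.8% of all genes. Under a scaling of the arrays to a common median, which keeps more of the difference in overall signal, the counts were 0 higher and 14 lower with DHA in Vector cells, where 0.645% of all genes were higher and 11.5% lower. They were 0 and 14 in Snail cells, against 2.52% and 14.2% of all genes, and 4 and 11 in TGF-β cells, against 4.11% and 17.8%. That scaling moved the median of all genes to -0.18, -0.16 and -0.14 in the 3 DHA differences.

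At 2-fold, 0 members differed with DHA in Vector cells, where 0.278% of all genes were higher and 1.21% lower. In Snail cells 0 members were 2-fold higher with DHA (1.18% of all genes) and 2 lower, TM7SF2 and ACSS2 (2.18%). In TGF-β cells 1 was higher, HMGCS1 (1.86%), and 1 lower, TM7SF2 (3.29%).

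**Figure D1:**
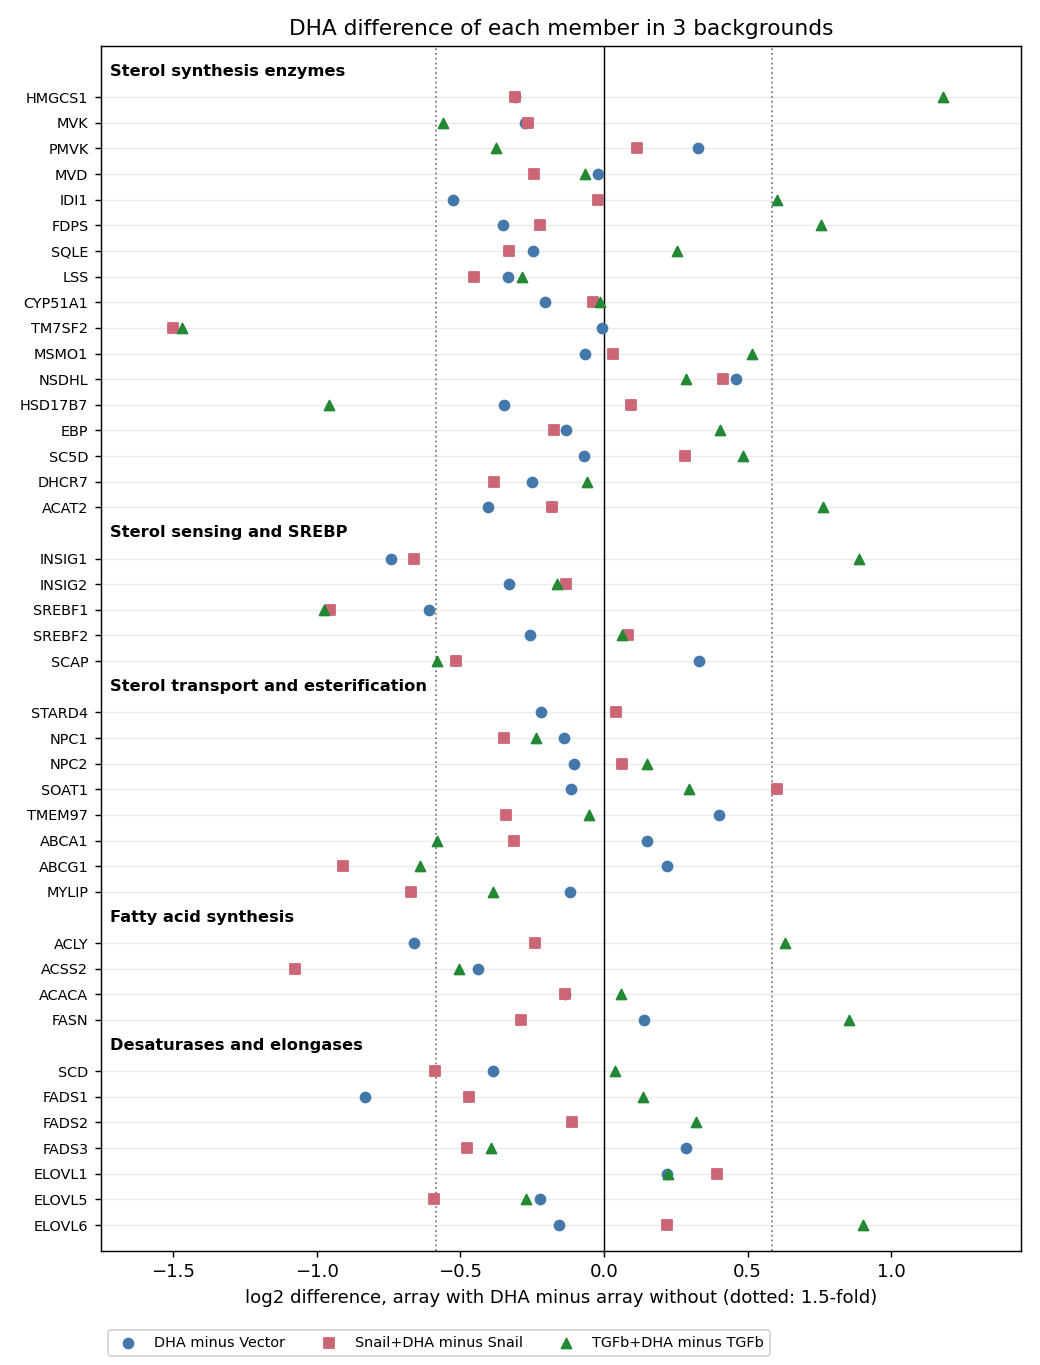
The log2 difference with DHA (horizontal axis) for each of the 41 members (rows, by role), with 1 point for each background and dotted lines at 1.5-fold. The TGF-β points of HMGCS1, FDPS, ACAT2, INSIG1, FASN and ELOVL6 lie to the right of 0.75, and the Snail and TGF-β points of TM7SF2 lie near -1.5.

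The sterol enzymes as a list leaned differently in the 3 backgrounds. With DHA, 15 of 17 were below their Vector level (median -0.25) and 12 of 17 below their Snail level (median -0.18), while 9 of 17 were above their TGF-β level (median 0.25). The medians of all genes were -0.01, -0.02 and -0.03. Of all genes, 6853 of 13324 were below their Vector level, 6658 of 12758 below their Snail level and 6298 of 13302 above their TGF-β level. Of the 17, 8 had their lowest level of the 6 arrays on TGFb, as did 15.9% of all genes, and 10 had their highest level on Snail, as did 19.0% of all genes.

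HMGCS1, which makes the HMG-CoA of the mevalonate pathway, had log2 signals of 10.10 on the DHA array and 10.41 on the Vector array, of 10.68 on Snail+DHA and 10.99 on Snail, and of 10.42 on TGFb+DHA and 9.24 on TGFb. The TGFb array was the low one, 1.17 below Vector, and TGFb+DHA stood at the Vector level. The DHA differences were 1.18 in TGF-β cells, or 2.27-fold, and -0.31 in both Snail and Vector cells.

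The same array was lowest for INSIG1, the sterol-regulated brake on SREBP processing. INSIG1 was at 9.12 on DHA and 9.86 on Vector, at 10.24 on Snail+DHA and 10.91 on Snail, and at 9.72 on TGFb+DHA and 8.83 on TGFb. The DHA differences were -0.74, -0.66 and 0.89 in Vector, Snail and TGF-β cells. INSIG1 thus differed 1.5-fold in all 3 backgrounds, lower with DHA in Vector and Snail cells and higher in TGF-β cells. A second, weaker INSIG1 probe had -0.18, -0.03 and 0.73, so its differences in Vector and Snail cells were under 1.5-fold.

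Of the 7 members of the mevalonate arm, HMGCS1 and 3 others (FDPS, ACAT2 and IDI1) were lowest on TGFb. The low TGFb level was not limited to this arm. Among the other sterol enzymes, MSMO1 (10.71), NSDHL (9.44), EBP (10.02) and SC5D (8.56) were also lowest on TGFb. FDPS, which makes farnesyl diphosphate, was at 9.51 on DHA and 9.86 on Vector, 10.01 on Snail+DHA and 10.23 on Snail, and 9.90 on TGFb+DHA and 9.14 on TGFb. ACAT2, the cytosolic thiolase that joins acetyl-CoA units, was at 10.28 on DHA and 10.68 on Vector, 10.90 on Snail+DHA and 11.08 on Snail, and 10.55 on TGFb+DHA and 9.79 on TGFb. The DHA difference in TGF-β cells was 0.76 for both genes. IDI1, which interconverts the isoprene units, was at 8.40 on DHA and 8.93 on Vector, 9.37 on Snail+DHA and 9.39 on Snail, and 8.92 on TGFb+DHA and 8.32 on TGFb, a DHA difference of 0.60 in TGF-β cells and -0.52 in Vector cells. MVK and MVD were lowest on TGFb+DHA, with DHA differences of -0.56 and -0.07 in TGF-β cells, and PMVK was highest on TGFb, with -0.38. For HMGCS1, INSIG1, FDPS, ACAT2 and IDI1 the TGFb level was the lowest of the 6, and the TGFb+DHA level lay within 0.15 of Vector.

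The TGFb+DHA minus TGFb and TGFb minus Vector differences share the TGFb array, so a single low array enters both with opposite sign. Without DHA, TGFb against Vector gave -1.17 for HMGCS1, -1.02 for INSIG1, -0.90 for ACAT2, -0.72 for FDPS and -0.61 for IDI1. With DHA on both arrays, TGFb+DHA against DHA gave 0.32, 0.61, 0.27, 0.39 and 0.52 for the same genes in that order. The low level was thus seen on 1 array of the 2 with TGF-β. The second INSIG1 probe had -0.35 for TGFb against Vector and 0.56 for TGFb+DHA against DHA, both under 1.5-fold.

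A limma fit of the DHA difference in TGF-β cells against that in Vector and Snail cells, added after the pattern was seen, gave 1.49 (SE 0.42) for HMGCS1 and 1.59 (SE 0.42) for INSIG1. Their unadjusted p-values in limma were 0.0066 and 0.0052. After Benjamini-Hochberg adjustment over 14811 genes, 0 genes passed in limma, and the lowest adjusted p of a member was 0.995. At an unadjusted p under 0.05, 6 members passed (HMGCS1, FDPS, ACAT2, INSIG1, ACLY and FASN), as did 4.15% of all genes.

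**Figure D2:**
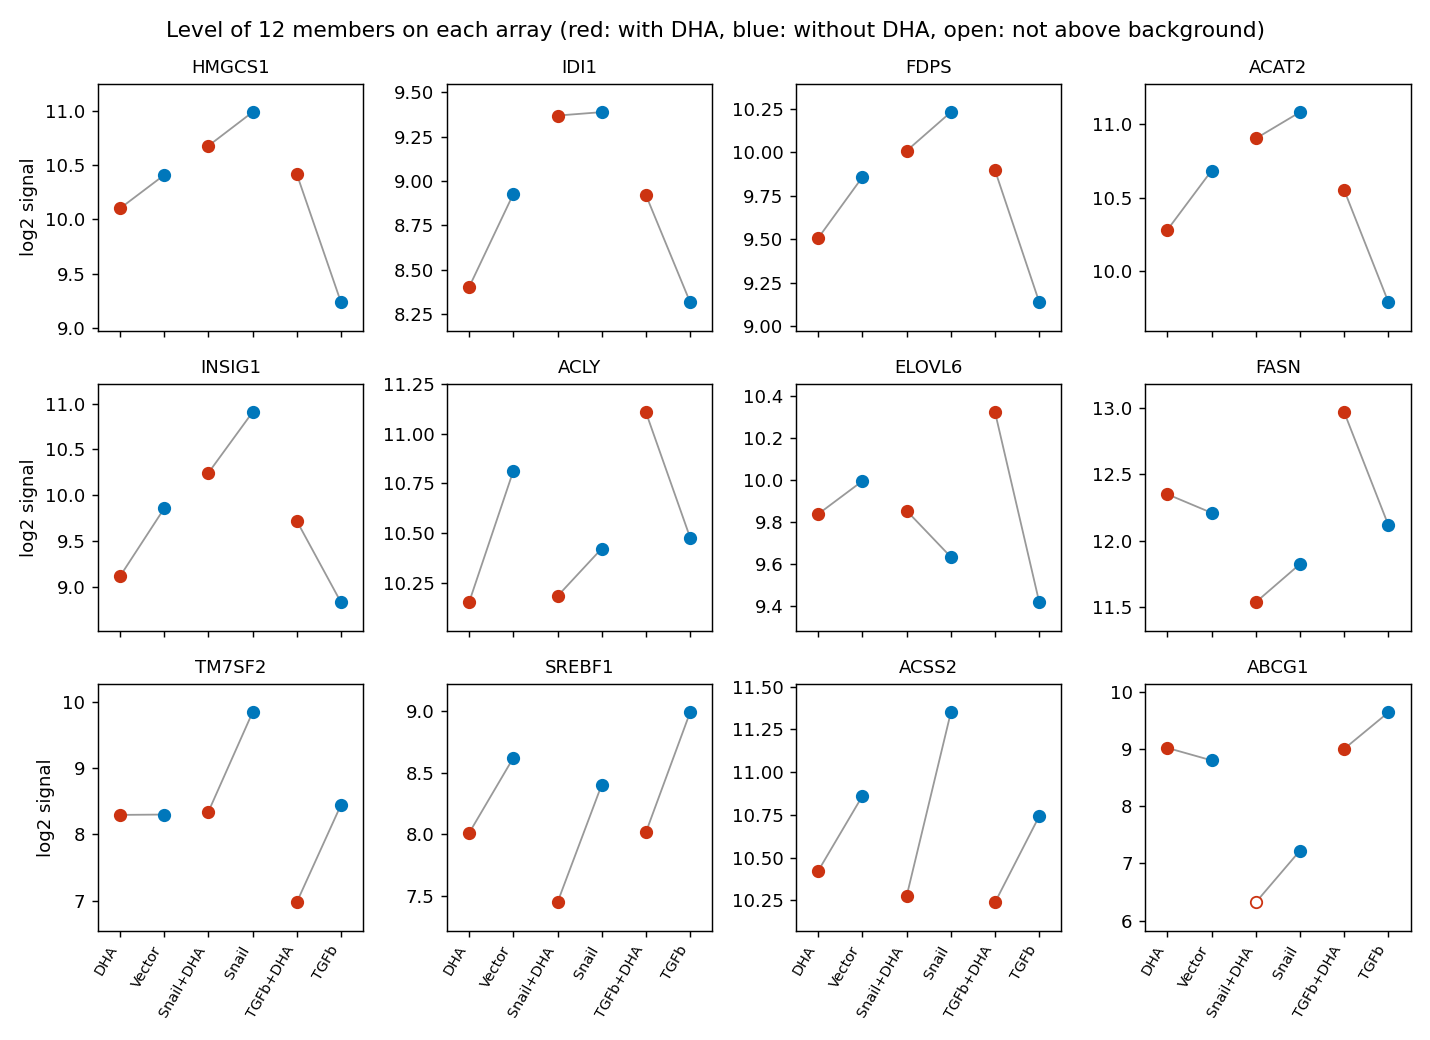
Log2 signal (vertical axis, scaled to each gene) of 12 members on each of the 6 arrays, 1 point per array, with lines joining the arrays with (red) and without (blue) DHA of a background. The upper row and INSIG1 are lowest on TGFb, with TGFb+DHA near the Vector level, while TM7SF2, SREBF1 and ACSS2 are lower on Snail+DHA and TGFb+DHA than on Snail and TGFb. The open point is ABCG1 on Snail+DHA, which was not above background.

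TM7SF2 went the other way. TM7SF2, a sterol reductase of the later pathway, was at 8.29 on DHA and 8.30 on Vector, 8.34 on Snail+DHA and 9.84 on Snail, and 6.98 on TGFb+DHA and 8.44 on TGFb. It was 2.83-fold lower with DHA in Snail cells and 2.77-fold lower in TGF-β cells, with a log2 difference of -0.01 in Vector cells. Snail was the high array in the first pair, 1.54 above Vector where Snail+DHA was 0.05 above DHA, and TGFb+DHA was the low array in the second. The Snail array enters both of its Snail differences with opposite sign.

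HSD17B7, a reductase that also acts late in sterol synthesis, was at 9.82 on DHA and 10.17 on Vector, 10.54 on Snail+DHA and 10.45 on Snail, and 9.86 on TGFb+DHA and 10.82 on TGFb. Its TGFb level was the highest of the 6, opposite to HMGCS1, and the DHA difference there was -0.96. The other sterol enzymes without a 1.5-fold DHA difference had DHA differences between -0.56 (MVK in TGF-β cells) and 0.52 (MSMO1 in TGF-β cells). NSDHL was above its level without DHA in all 3 backgrounds (0.46, 0.41 and 0.29 in Vector, Snail and TGF-β cells).

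The promoters of 4 members are printed to show where the elements bound by SREBPs and by NF-Y, a factor known to act with them, lie in 3 genes that were lowest on TGFb (INSIG1, HMGCS1 and FDPS) and in TM7SF2, which was not. Each runs from 250 bases before to 50 bases from the annotated start, on the strand of the gene, from RefSeq on GRCh38.p14. Capitals mark the CCAAT box and the sterol element core CACNCCAC on either strand, so a CCAAT box on the other strand reads ATTGG. The INSIG1 window is chr7:155297628-155297927 on the plus strand, the HMGCS1 window chr5:43313363-43313662 on the minus strand, the FDPS window chr1:155308616-155308915 on the plus strand and the TM7SF2 window chr11:65111622-65111921 on the plus strand.
INSIG1: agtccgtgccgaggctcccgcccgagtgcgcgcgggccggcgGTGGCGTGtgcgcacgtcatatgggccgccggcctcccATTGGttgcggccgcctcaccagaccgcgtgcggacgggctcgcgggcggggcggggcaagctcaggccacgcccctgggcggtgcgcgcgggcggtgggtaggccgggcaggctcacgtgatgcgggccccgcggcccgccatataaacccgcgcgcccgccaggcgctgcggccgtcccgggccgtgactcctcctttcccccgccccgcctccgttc
HMGCS1: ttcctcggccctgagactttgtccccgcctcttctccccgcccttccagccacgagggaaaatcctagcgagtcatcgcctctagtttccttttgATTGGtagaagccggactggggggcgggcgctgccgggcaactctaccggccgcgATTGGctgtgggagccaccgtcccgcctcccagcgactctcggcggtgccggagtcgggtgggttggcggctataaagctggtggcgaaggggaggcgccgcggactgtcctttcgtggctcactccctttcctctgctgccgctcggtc
FDPS: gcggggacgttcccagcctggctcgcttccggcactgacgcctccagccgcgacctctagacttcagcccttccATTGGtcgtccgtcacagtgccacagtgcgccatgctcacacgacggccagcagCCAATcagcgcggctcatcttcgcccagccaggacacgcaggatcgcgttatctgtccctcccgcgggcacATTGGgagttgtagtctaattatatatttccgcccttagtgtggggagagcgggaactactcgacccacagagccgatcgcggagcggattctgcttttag
TM7SF2: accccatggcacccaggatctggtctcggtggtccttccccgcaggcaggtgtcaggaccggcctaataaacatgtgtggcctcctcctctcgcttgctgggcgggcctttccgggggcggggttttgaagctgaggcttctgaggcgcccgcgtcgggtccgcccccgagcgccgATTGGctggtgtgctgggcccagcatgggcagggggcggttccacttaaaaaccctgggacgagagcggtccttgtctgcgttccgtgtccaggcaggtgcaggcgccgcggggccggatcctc
INSIG1 holds 1 sterol element core, its first base at -208 from the start, and a CCAAT box at -170. HMGCS1 holds CCAAT boxes at -155 and -100, FDPS at -176, -122 and -51, and TM7SF2 at -74, and none of these 3 windows holds the core as spelled. Promoters were found for 37 members. CCAAT was found in 28 of them (75.7%) and in 39.7% of 27303 gene promoters, and in 13 of 15 sterol enzymes (86.7%). CACNCCAC was found in 7 of 37 members (18.9%) and 7.05% of all genes, and the longer TCACNCCAC in 1 of 37 (2.7%) and 1.39%. The GC box GGGCGG was found in 35 of 37 (94.6%) and 48.3%, and the E-box CACGTG in 6 of 37 (16.2%) and 8.78%. All were searched on both strands, and TCACNCCAC contains CACNCCAC. The windows of all genes were not matched to those of the members in base composition or kind of gene, and a match is no sign of binding.

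Among the genes that control the pathway, SREBF1, which encodes the SREBP isoforms of fatty acid synthesis, was lower with DHA in every background. SREBF1 was at 8.01 on DHA and 8.62 on Vector, 7.45 on Snail+DHA and 8.40 on Snail, and 8.02 on TGFb+DHA and 8.99 on TGFb. The differences were -0.61, -0.95 and -0.97 in Vector, Snail and TGF-β cells. A second SREBF1 probe had -0.27, -0.49 and -0.89. SREBF2, INSIG2 and SCAP had DHA differences from -0.58 (SCAP in TGF-β cells) to 0.33 (SCAP in Vector cells), with SREBF2 at a low 6.76 to 7.02 on all arrays.

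Over the 3 backgrounds, a limma fit with the background as a block called 0 of 14811 genes (0.0%) after Benjamini-Hochberg adjustment. At an unadjusted p under 0.05 it had 1789 genes (12.1%) and 4 of 41 members, MVK, TM7SF2, SREBF1 and ACSS2. SREBF1 averaged -0.84 (SE 0.18, limma adjusted p = 0.241), the lowest adjusted p of the members. On the Snail and TGF-β pairs without the Vector pair, the fit called 904 genes (6.1%) and 4 members. These were TM7SF2 at -1.48 (SE 0.20, limma adjusted p = 0.00298), SREBF1 at -0.96 (SE 0.20, limma adjusted p = 0.017), ACSS2 at -0.79 (SE 0.21, limma adjusted p = 0.0429) and ABCG1 at -0.77 (SE 0.20, limma adjusted p = 0.0451, with Snail+DHA at a measured value not above background), all lower with DHA (3.57% of all genes were called lower and 2.53% higher). The spread in these fits is that between backgrounds, since no condition has a second array, and limma moderates it toward that of other genes. For the DHA fit over the 3 backgrounds this prior had 6.23 degrees of freedom against 2 residual ones. The fit without the Vector pair had fewer residual ones. There TM7SF2 had -1.50 and -1.47 in Snail and TGF-β cells, so its SE of 0.20 came largely from other genes.

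In all, 12 of 41 members were lower with DHA in each of the 3 backgrounds, where 18.7% of all genes were, and 2 were higher in each (NSDHL and ELOVL1), where 16.5% were. TM7SF2, INSIG1, SREBF1 and ABCG1 were at least 1.5-fold lower in 2 or more backgrounds, as were 3.77% of all genes, and 0 members were as much higher in 2, where 2.74% of all genes were. With all probes of a gene averaged, ABCG1 was at -0.39 and -0.24 in Snail and TGF-β cells and INSIG1 at -0.46 and -0.35 in Vector and Snail cells, all under 1.5-fold.

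Genes of fatty acid synthesis also differed by background with DHA. Of the 4, 0 were lowest on TGFb, where 15.9% of all genes were, which are too few genes to set them apart from the sterol enzymes. ACLY, which cleaves citrate to acetyl-CoA, was at 10.15 on DHA and 10.81 on Vector, 10.18 on Snail+DHA and 10.42 on Snail, and 11.11 on TGFb+DHA and 10.48 on TGFb. Its DHA difference was -0.66 in Vector cells and 0.63 in TGF-β cells, and a second ACLY probe had -0.39, 0.06 and 0.70 in Vector, Snail and TGF-β cells. FASN, the synthase that makes palmitate, was at 12.35 on DHA and 12.21 on Vector, 11.53 on Snail+DHA and 11.82 on Snail, and 12.97 on TGFb+DHA and 12.12 on TGFb. For both genes TGFb+DHA was the highest array, with FASN 0.85 above TGFb.

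ACSS2, which makes acetyl-CoA from acetate, was at 10.42 on DHA and 10.86 on Vector, 10.27 on Snail+DHA and 11.35 on Snail, and 10.24 on TGFb+DHA and 10.74 on TGFb. The largest of its DHA differences was -1.07 in Snail cells. Of 2 further ACSS2 probes above background on all arrays, one had -0.34, -0.99 and -0.50 in Vector, Snail and TGF-β cells, and the weaker had -0.37, -0.62 and 0.51, so it was higher with DHA in TGF-β cells. ACACA, the carboxylase that makes malonyl-CoA, was at 9.99 on DHA and 10.12 on Vector, 8.72 on Snail+DHA and 8.85 on Snail, and 10.14 on TGFb+DHA and 10.08 on TGFb. Its DHA differences were -0.13, -0.13 and 0.06 in Vector, Snail and TGF-β cells, and its arrays with Snail were the low ones.

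Of the desaturases, SCD, which puts the first double bond into saturated acyl chains, had the highest levels of the list, at 13.16 on DHA and 13.54 on Vector, 12.75 on Snail+DHA and 13.34 on Snail, and 13.39 on TGFb+DHA and 13.35 on TGFb. Signals of different probes are not compared as amounts of RNA. The SCD difference with DHA was -0.59 in Snail cells, -0.39 in Vector cells and 0.04 in TGF-β cells. FADS1, a desaturase of polyunsaturated chains, was at 8.66 on DHA and 9.49 on Vector, 10.86 on Snail+DHA and 11.33 on Snail, and 9.57 on TGFb+DHA and 9.43 on TGFb. Its DHA difference was -0.83 in Vector cells, the largest of any member there, against -0.47 and 0.14 in Snail and TGF-β cells.

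FADS2 and FADS3 lie next to FADS1 on the same chromosome arm. FADS2, the companion front-end desaturase, was at 6.33 on DHA and 6.30 on Vector, both not above background, at 6.37 (not above background) on Snail+DHA and 6.48 on Snail, and at 6.76 on TGFb+DHA and 6.44 on TGFb. FADS3 was at 7.62 on DHA and 7.33 on Vector, 7.16 on Snail+DHA and 7.64 on Snail, and 7.10 on TGFb+DHA and 7.49 on TGFb. No DHA difference of either passed 1.5-fold.

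ELOVL6, which extends palmitate, was at 9.84 on DHA and 9.995 on Vector, 9.85 on Snail+DHA and 9.63 on Snail, and 10.32 on TGFb+DHA and 9.42 on TGFb. It had the order of HMGCS1 in TGF-β cells, with TGFb lowest of the 6 and a DHA difference of 0.90, and a second probe gave 1.22. ELOVL5, which extends polyunsaturated chains, was at 9.41 on DHA and 9.63 on Vector, 9.49 on Snail+DHA and 10.08 on Snail, and 9.31 on TGFb+DHA and 9.58 on TGFb, lower with DHA in each background and by 0.59 on the log2 scale in Snail cells. ELOVL1, an elongase of very long chains, was at 8.32 on DHA and 8.10 on Vector, 8.42 on Snail+DHA and 8.03 on Snail, and 8.52 on TGFb+DHA and 8.30 on TGFb, higher with DHA each time and by less than 1.5-fold.

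Set beside the sterol enzymes, the desaturases and elongases had DHA medians of -0.19, -0.47 and 0.14 in Vector, Snail and TGF-β cells. The sterol enzymes had -0.25, -0.18 and 0.25. For desaturases and elongases the median in Vector cells was over 6 of the 7 genes, since FADS2 was not above background on DHA or Vector. Under common-median scaling the TGF-β median of desaturases and elongases turned to -0.02, or 0.12 relative to all genes, and that of sterol enzymes was 0.09, or 0.23 relative to all genes. The fatty acid synthesis list had -0.29, -0.26 and 0.34, the control genes -0.33, -0.52 and -0.16, and the transport genes -0.11, -0.33 and -0.24. These medians are descriptions of 6 arrays.

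**Figure D3:**
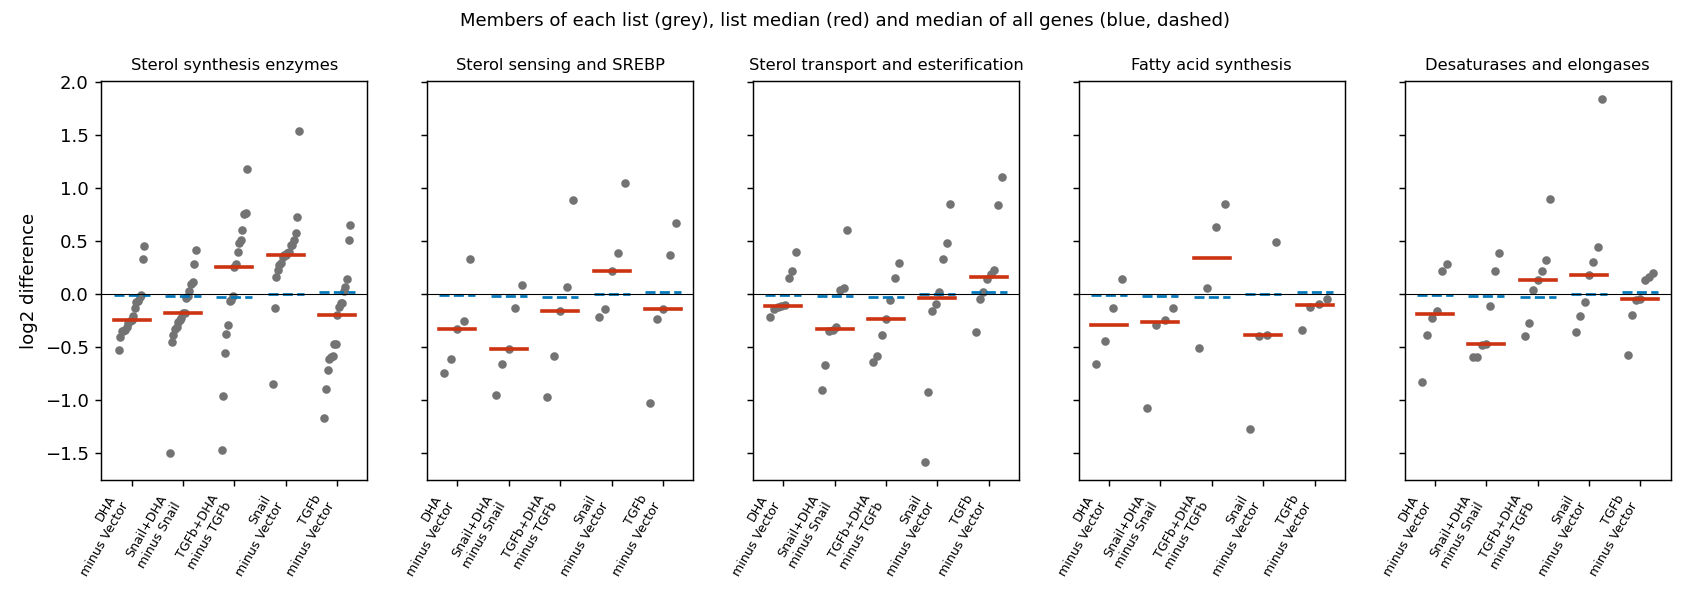
Log2 differences (vertical axis) of the members of 5 lists (grey points) in 3 DHA and 2 inducer differences, with the list median in red and the median of all genes as a dashed blue line. The sterol enzyme median is at -0.25, -0.18 and 0.25 in the DHA differences and at 0.37 and -0.20 for Snail and TGFb against Vector.

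Of the transport genes, ABCG1, a cholesterol exporter and target of the sterol receptor LXR, was at 9.02 on DHA and 8.81 on Vector, 6.32 on Snail+DHA, where it was not above background, and 7.23 on Snail, and 9.01 on TGFb+DHA and 9.65 on TGFb. It was at least 1.80-fold lower on Snail+DHA than on Snail. The bound sets the array not above background at the lowest signal that was. The DHA difference in TGF-β cells was -0.64 and in Vector cells 0.22. ABCA1, the other exporter, had DHA differences of 0.15, -0.31 and -0.58 in Vector, Snail and TGF-β cells, none of them 1.5-fold.

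MYLIP, an LXR-induced ubiquitin ligase that acts on lipoprotein receptors, was at 8.99 on DHA and 9.11 on Vector, 7.52 on Snail+DHA and 8.19 on Snail, and 8.68 on TGFb+DHA and 9.06 on TGFb. SOAT1, which esterifies cholesterol, was at 6.61 on DHA and 6.72 on Vector, 7.35 on Snail+DHA and 6.75 on Snail, and 7.04 on TGFb+DHA and 6.75 on TGFb. MYLIP was 0.67 lower and SOAT1 0.60 higher with DHA in Snail cells, where SOAT1 was the 1 member past 1.5-fold upward. The remaining transport genes STARD4, NPC1, NPC2 and TMEM97 had DHA differences between -0.35 and 0.40, with STARD4 above background on 4 arrays.

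The inducers were compared with their controls without and with DHA. Against Vector, 5 of 41 members were 1.5-fold higher with Snail and 4 lower, where 9.84% and 10.1% of all genes were, and with DHA on both arrays (Snail+DHA against DHA) 9 of 40 were higher and 5 lower, against 11.5% and 11.4%. Under common-median scaling these counts were 4 higher and 6 lower for Snail against Vector (7.85% and 13.7% of all genes) and 5 higher and 7 lower for Snail+DHA against DHA (8.76% and 12.7%). With TGF-β, 4 of 41 members were higher than Vector and 6 lower, against 6.5% and 3.94% of all genes. TGFb+DHA against DHA had 4 of 41 higher and 1 lower, against 5.27% and 5.58%. At 2-fold, Snail against Vector had 3 members higher (3.88% of all genes) and 2 lower (4.09%), and Snail+DHA against DHA 2 higher (4.07%) and 3 lower (5.16%). TGFb against Vector had 1 member 2-fold higher (1.05%) and 2 lower (0.778%), and TGFb+DHA against DHA 0 higher (1.72%) and 1 lower (1.75%), TM7SF2.

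The Snail term of the limma fit, over the arrays with and without DHA, called 5 of 41 members, where 7.11% of all genes were called, and of these 1 was higher and 4 lower, where 3.11% of all genes were called higher and 4.0% lower. FADS1 was higher with Snail by 2.02 (SE 0.28, limma adjusted p = 0.00383), 1.84 without DHA and 2.20 with it. ABCG1 was lower, at -2.14 (SE 0.29, limma adjusted p = 0.00384) with Snail+DHA at its measured value, and at least 6.25-fold lower on Snail+DHA than on DHA. Its probes differed in direction without DHA. The second-brightest had -1.34 for Snail against Vector and -2.26 for Snail+DHA against DHA. The third, above background on all 6 arrays, had 0.34 and -0.75. ACACA was at -1.27 (SE 0.22, limma adjusted p = 0.0117), with the same -1.27 without and with DHA, and MYLIP at -1.20 (SE 0.23, limma adjusted p = 0.0199).

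SQLE, the squalene epoxidase, was the sterol enzyme farthest below its control with Snail. SQLE was at 12.42 on DHA and 12.67 on Vector, 11.49 on Snail+DHA and 11.82 on Snail, and 12.34 on TGFb+DHA and 12.08 on TGFb. Its Snail term was -0.89 (SE 0.21, limma adjusted p = 0.0413), and the call was lost when all probes of a gene were averaged (-0.83), as was that of ABCG1 (-0.80). The lower levels of SQLE, ABCG1, ACACA and MYLIP in Snail cells stand beside lower KRT5 and KRT14 and higher CD68 on the same arrays, and the part of these in the result was not tested.

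For the sterol enzymes the median with Snail was 0.37 against Vector, with 15 of 17 above 0. That difference shares the Vector array with that of DHA alone. For Snail+DHA against DHA the median was 0.46, with 14 of 17 above 0. Of all genes, 6822 of 13517 and 6420 of 12876 were above 0 in the same order, with medians of 0.004 and -0.001. Under common-median scaling the sterol enzyme medians were 0.18 and 0.41. DHCR7, which completes the synthesis of cholesterol, was at 8.85 on DHA and 9.10 on Vector, 9.45 on Snail+DHA and 9.83 on Snail, and 9.12 on TGFb+DHA and 9.17 on TGFb. DHCR7 was thus 0.60 above DHA on Snail+DHA and 0.73 above Vector on Snail. INSIG1 was higher by 1.13 and 1.05 in the same pairs, and its second, weaker probe by 0.45 and 0.30, both under 1.5-fold. Neither passed the Snail test (limma adjusted p = 0.132 for DHCR7 and 0.149 for INSIG1).

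The Snail differences with and without DHA come from different arrays. Over the 41 members they had Pearson's r of 0.81, and 32 of 41 had the same sign (78.0%), while over all genes r was 0.67 and 63.9% shared the sign. The TGF-β differences with and without DHA had r of -0.26 over members, with 19 of 41 of the same sign (46.3%), and 0.01 over all genes, with 49.2%. Genes are not independent replicates, and these values describe 4 arrays each.

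**Figure D4:**
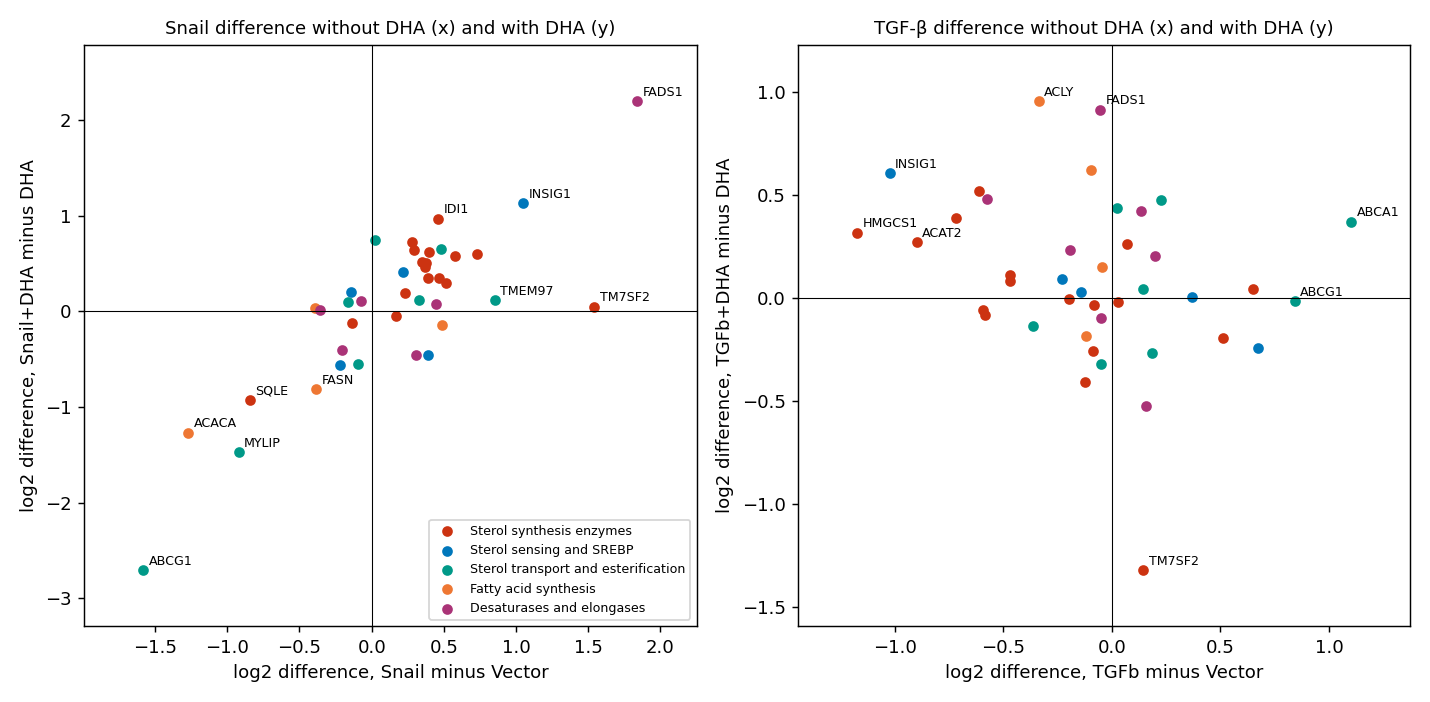
Log2 difference of each member between inducer and control without DHA (horizontal axis) and with DHA (vertical axis), for Snail (left) and TGF-β (right), coloured by list. FADS1 and ABCG1 lie at opposite ends of the Snail panel (r = 0.81), while in the TGF-β panel HMGCS1, INSIG1 and ACAT2 lie at the left and above 0 (r = -0.26).

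The TGF-β term of the fit called 8 of 14811 genes (0.054%) and 0 members. At an unadjusted p under 0.05 it had 5.79% of all genes and 2 members, NPC2 and ABCA1. ABCA1 was at 11.01 on TGFb, 1.10 above Vector, and at 10.43 on TGFb+DHA, 0.37 above DHA. The comparison of the Snail and TGFb arrays, which the study grouped as those of less stable rafts, with the other 4 arrays called 0 genes in limma (0.0%). It had 7.24% of genes and 0 members at an unadjusted p under 0.05.

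Other genes of the pathways were followed in a list of 28, of which 24 had a probe and 21 were above background on some array. With DHA, 0 of 21 were 1.5-fold higher and 3 lower in Vector cells, 1 of 20 higher and 3 lower in Snail cells, and 0 of 21 higher and 4 lower in TGF-β cells. The shares of all genes were 2.54% higher and 3.72% lower, 5.9% and 7.43%, and 7.33% and 10.8% in the same order. Those lower in at least 2 backgrounds were ACACB, TECR and ACSL1. ACSL1, which activates fatty acids with CoA, was at 9.47 on DHA and 10.10 on Vector, 10.25 on Snail+DHA and 10.78 on Snail, and 8.90 on TGFb+DHA and 9.78 on TGFb. TECR, which completes each round of chain elongation, had differences of -0.20, -0.59 and -0.89 in Vector, Snail and TGF-β cells. ACACB, the mitochondrial carboxylase, was not above background on DHA and TGFb+DHA, at least 1.39-fold lower than Vector and at least 1.56-fold lower than TGFb.

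Where several probes of a member were above background on all 6 arrays, as for 11 members, the DHA differences of the probes spanned a median of 0.27, 0.30 and 0.16 in Vector, Snail and TGF-β cells. They had opposite signs for 3, 3 and 2 of the 11 members. The widest was MSMO1, a sterol demethylation enzyme, whose brightest probe had DHA differences of -0.06, 0.03 and 0.52 and whose second probe had 0.76, 0.86 and 1.62. Its second probe was 1.5-fold higher with DHA in all 3 backgrounds and its brightest in none.

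**Figure D5:**
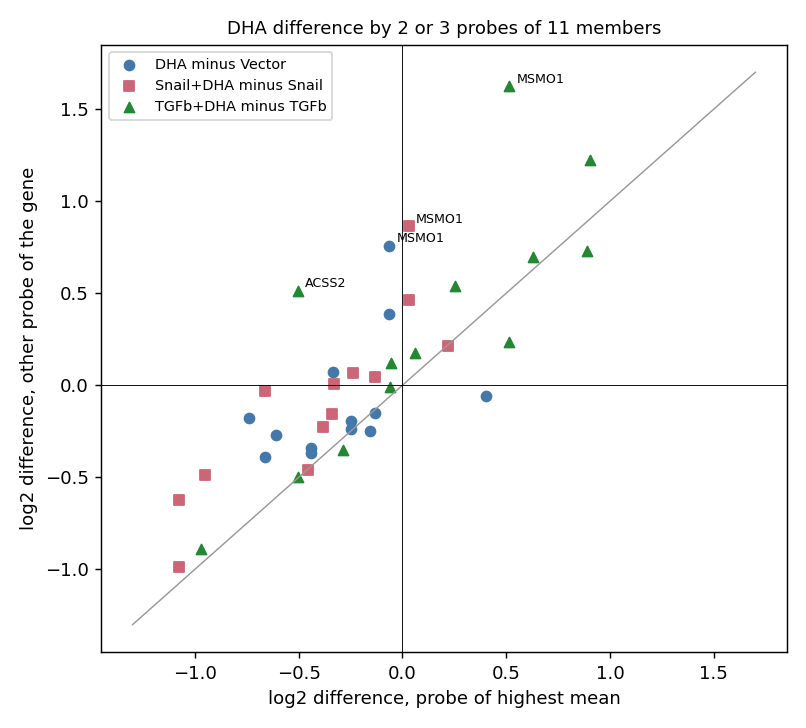
DHA difference on the log2 scale by the brightest probe (horizontal axis) and by each other probe (vertical axis) of 11 members, with 1 point for each other probe and background and the line of equality. Points left of the line near 0.75 to 1.6 are the second probe of MSMO1, and the named ACSS2 point is its weakest such probe in TGF-β cells.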

How the data were processed

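Total RNA of 6 HMLE cultures was labelled and hybridised to Illumina HumanHT-12 arrays. The deposited log2 values are the authors' quantile-normalized expression, with the base inferred from their range. A deposited table of non-normalized intensity values, made by the authors in GenePattern, held values too large for a scanner. Its natural logarithm was therefore taken as the log2 signal, which served for detection and alternatives. Within each array this signal had a Spearman correlation of 1 with the deposited log2 values. Quantile normalization of it left gaps of up to 1.13 to those values on each array, so they were not reproduced exactly. A probe was above background at p under 0.05 against the low-signal mode of its array, since no detection p was used here. Of 47323 probes, 30113 had 1 symbol in the platform table, 8 several and 17202 none. Each gene was represented by its probe of highest mean. Fits used limma 3.58.1 in R 4.3.3, with a trend of variance with signal, 2 residual degrees of freedom for the DHA fit, and Benjamini-Hochberg adjustment over 14811 genes. Tested on simulated data with this design, the fit recovered 43.5% of planted 1.5-fold DHA differences and 90.8% of planted 2-fold ones. Each planted difference was the same in every background, so these shares do not apply to differences that vary by background. TM7SF2 varied in this way, with an average of -0.99 but -0.01 in Vector cells, and was not called (limma adjusted p = 0.303). The lack of calls in the DHA fit is therefore no sign that such differences were absent. Values on every array are given for members past 1.5-fold with DHA, in both differences of an inducer or called by a fit, and for all desaturases and elongases. Of the promoter motifs tried, 5 are given, and other spellings of the sterol element are left out. Members and lists were chosen with earlier results of these data known. Precision is limited by the 1 array per condition.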

Additional observations from a re-analysis of the deposited data

Results flagged for a closer look

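INSIG1 and ACLY had 1.5-fold DHA differences in opposite directions in different backgrounds. INSIG1 had -0.74 in Vector cells and -0.66 in Snail cells, with 0.89 in TGF-β cells. ACLY had -0.66 in Vector cells, -0.24 in Snail cells and 0.63 in TGF-β cells. With all probes averaged, INSIG1 was at -0.46, -0.35 and 0.81, and ACLY at -0.52 in Vector cells and 0.66 in TGF-β cells, so the lower differences were then under 1.5-fold. In the limma fit of the DHA difference in TGF-β cells against the other backgrounds, INSIG1 was at 1.59 (SE 0.42) and ACLY at 1.08 (SE 0.43), and neither passed after adjustment, where the lowest adjusted p of a member was 0.995.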

How the results depend on the processing

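With 1 array per condition, array-to-array error has no direct measure, and depth is replaced by signal over background, which leaves FADS2 and STARD4 near the floor. Common-median scaling, which replaces the quantile step, gave 14 members lower for DHA against Vector, 0 higher and 14 lower for Snail+DHA against Snail, 4 higher and 11 lower for TGFb+DHA against TGFb, and 5 higher for Snail+DHA against DHA. The medians for DHA against Vector were then -0.53 for sterol enzymes, -0.60 for control genes, -0.61 for fatty acid synthesis and -0.54 for desaturases and elongases, and control genes were at -0.75 and -0.40 in Snail and TGF-β cells. At 2-fold, 0 members were lower for DHA against Vector, 0 higher and 2 lower for Snail+DHA against Snail, 1 higher and 1 lower for TGFb+DHA against TGFb, 3 and 2 for Snail against Vector, 1 and 2 for TGFb against Vector, 2 and 3 for Snail+DHA against DHA, and 0 higher for TGFb+DHA against DHA. With the probe of highest variance, 1 member was higher for DHA against Vector and 2 for Snail+DHA against Snail. With the mean of all probes, chosen after seeing the data, 1 member was lower for DHA against Vector and the Snail term called 3 members. Without the Vector pair the DHA fit called 4 members and 904 genes, and without the Snail pair 0 members and 23 genes. Leaving out the TGF-β pair gave 0 members and 0 genes. The TGF-β term called 4 genes under common-median scaling and 0 without the variance trend, and SQLE lost its Snail call without that trend. For 40 differences past 1.5-fold, those of the members given on every array in the DHA differences and in Snail and TGFb against Vector, 240 alternatives were run. Of these 227 moved by less than the residual spread, 13 by more and 0 reversed. The cause was not tested. The labels give no replicate numbers, so arrays were paired by background, and without that block the DHA fit also called 0 genes.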
